A study of Danio rerio with 31 samples.

Results

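The lysosomal proton pump, the cathepsins and the other lysosomal hydrolases were followed in larval zebrafish (Danio rerio) through their transcripts on Agilent one-colour microarrays. Genes were taken by symbol: every probe whose current NCBI symbol began with atp6v, atp6ap, cts and a letter, galns, gns, npc1, npc2 or mcoln. Probes whose symbol began with lamp or neu, each followed by a digit, or was hexa, hexb or tpp1 were also taken. This gave 62 probes for 44 genes, of 43603 probes on the array and 11613 genes that could be matched to an NCBI gene. They comprised 18 pump genes (8 of the V1 sector, 10 of the V0 sector and its accessory proteins), 22 hydrolase genes (12 cathepsins, 10 other hydrolases) and 4 genes of membrane proteins or sterol carriers. Each gene was read by its brightest detected probe, and 15 of the 44 genes had more than 1 probe.

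The study sampled pooled WT larvae of the AB strain, raised in a 14 h light and 10 h dark cycle, every 4 h for 12 time points from the fifth day after fertilization. The 12 DD pools had been moved to constant darkness before lights-on of the first sampling day, the 12 LD pools stayed in the light/dark cycle, and both were collected at the same hours. Each time point was 1 array of 1 pool, so within a condition the only repeat of a clock time is the same hour of the second 24-h cycle. A second set of 7 arrays held whole larvae at 48 and 50 hpf (hours post-fertilization): 3 pools injected with a morpholino against the start codon of mitfa (1 at 48 hpf and 2 at 50 hpf, which differed in the dose injected), 2 pools injected with a standard control morpholino and 2 uninjected WT pools, 1 of each per age. Mitfa is a MiT/TFE transcription factor that specifies melanophores. Circadian time (CT, written ZT in the sample labels) counts hours from lights-on at CT 0, with lights-off at CT 14, and all values are log2 signals after quantile normalization.

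Lysosomes degrade proteins, glycans and lipids in an acid lumen. The vacuolar H+-ATPase supplies the acid: its cytosolic V1 sector hydrolyses ATP and its membrane-bound V0 sector carries the protons. Cathepsins are proteases that work at low pH, and the sulfatases, hexosaminidases and sialidases remove single groups from sugar chains. In mammals both the pump and the hydrolases carry promoter elements bound by MiT/TFE factors. The pump is also abundant outside lysosomes, in synaptic vesicles and in acid-secreting ionocytes and kidney cells.

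All 62 probes were detected (well above background on at least 75% of arrays) on the DD and LD arrays, and 59 probes of 41 genes were detected at 48 and 50 hpf, where neu3.3, neu4 and mcoln2 were not. The DD and LD arrays had 75.2 to 92.0% of spots well above background and median spot signals of 214.8 to 339.1, against 71.3 to 75.3% and 41.9 to 60.4 on the 48 and 50 hpf arrays. No spot was saturated. DD and LD arrays lay on separate slides (3 each, with 4 successive time points per slide), so that condition and slide cannot be told apart and a slide shares its neighbours in time. The transcript of mitfa itself was higher in the mitfa morphants by 3.48 on the log2 scale (limma, adjusted p = 0.00128), with 11.95, 11.57 and 11.45 in the 3 mitfa morphant pools against 8.46, 7.93, 8.47 and 7.83 in the control morphant and WT pools. A morpholino at the start codon blocks translation, so this level does not check the knockdown.

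In the main processing, the members called rhythmic in both conditions were all hydrolases. A ZCOG (zebrafish circadian oscillating gene) is a gene whose dominant period was 24 h with a p below 0.5 in Fisher's g test in DD and in LD. Of the 18 pump genes 0 were ZCOGs, and of the 22 hydrolase genes 9 were (40.9%), against 17.6% of the 11164 detected NCBI genes. They were 5 of 12 cathepsins (ctsba, ctsc, ctsd, ctsl.1 and ctss2.1) and 4 of 10 other hydrolases (gnsa, gnsb, neu1 and tpp1). None of the 4 membrane protein and carrier genes (lamp1a, lamp2, mcoln2 and npc2.1) was one by its brightest probe. A dominant period of 48 h, as in 13 of 18 pump genes in DD, bars a gene from this call. Some pump genes were ZCOGs once a straight line was removed. These calls are for the larva as a whole: a change in the number of cells of a type and a change in RNA per cell cannot be told apart.

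At the stricter limit of p below 0.15, 0 pump genes and 3 hydrolase genes (ctsd, ctsl.1 and gnsb) oscillated in DD, against 13% of all genes. In LD the same limit was passed by 2 pump genes (atp6v0b and atp6v0d1) and 11 hydrolase genes, against 21.6% of all genes. A moderated F test of the 24-h terms (limma, Benjamini-Hochberg adjustment over all detected probes, 5%) called 0 pump genes and 0 hydrolase genes in DD, where 4.38% of all genes passed. At an unadjusted p below 0.05, 1 pump gene and 5 hydrolase genes did so in DD, against 18.8% of all genes, a share near that of the hydrolases. In LD it called 0 pump genes and 9 hydrolase genes (ctsba, ctsc, ctsd, ctsf, ctss2.1, ctsz, hexb, neu1 and tpp1), against 15.3% of all genes. With slide as a fixed term it called 2 pump genes in LD (atp6v1aa, adjusted p = 0.0273, and atp6v0a2b, adjusted p = 0.0483) and 10 hydrolase genes, against 30.4% of all genes. Ctsd (adjusted p = 0.0537) and ctsf (adjusted p = 0.118) lost their calls in that fit, and ctsf also with slide as a random block (adjusted p = 0.0585). The first 24-h cycle alone, with 6 time points per condition, gave 2 ZCOGs among the hydrolases, against 24.2% of all genes, and the second alone gave 15, against 33.8% of all genes. The pump genes gave 2 and 3.

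**Figure D1:**
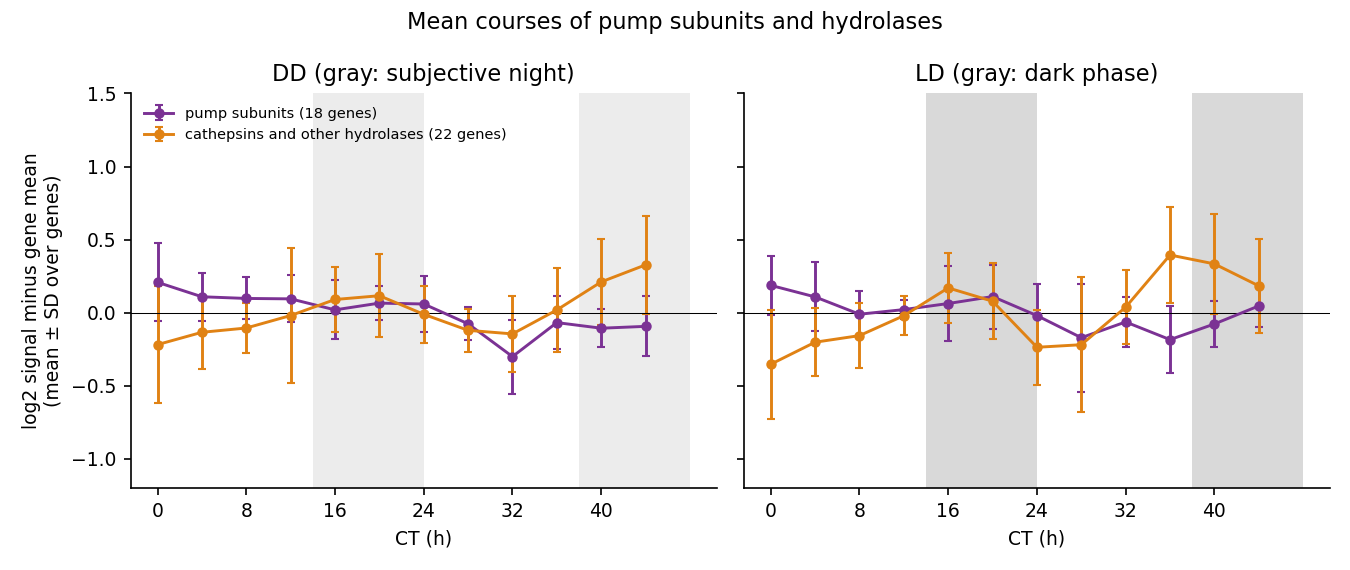
Mean course of the 18 pump genes and the 22 hydrolase genes in DD and LD, each gene centred on its own mean in that condition (log2), against CT in hours. Points are means over genes and bars are SD over genes. The hydrolases peaked near CT 16 to CT 20 in the first cycle and near CT 36 to CT 44 in the second, while the pump genes were on average lower in the second cycle.

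The hydrolases also shared a phase. Their phases, from a 24-h cosine fit to the 12 arrays of a condition, had a circular mean of CT 17.5 in DD (mean vector length 0.72, n = 22 genes) and CT 15.01 in LD (0.69), where a length of 1 is a single shared phase and 0 an even spread. Between CT 14 and CT 19 lay 14 of 22 hydrolase genes in DD and 15 in LD, against 1 and 3 of 18 pump genes, and 29.9% and 25.7% of all NCBI genes. That window was not set in advance and holds the circular means of the hydrolases, so its counts describe the phases and test nothing. The mean vector length over all NCBI genes was 0.09 in DD and 0.05 in LD. The pump genes had a circular mean of CT 0.23 in DD (vector length 0.58) and CT 22.7 in LD (0.50), on small amplitudes: the median was 0.11 in DD and 0.13 in LD, below the medians of 0.16 and 0.20 over all NCBI genes. The hydrolase medians were 0.19 in DD and 0.32 in LD.

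The mean course of the pump genes peaked 6.09 h after that of the hydrolases in DD and 7.18 h after it in LD. In DD the peak of the pump course was at CT 23.5 with an SE of 3.36 h, on an amplitude of 0.07 ± 0.06, so this lag is poorly set. The hydrolase course peaked at CT 17.4 ± 0.84 h in DD. In LD the pump peaked at CT 22.01 ± 2.03 h and the hydrolases at CT 14.8 ± 0.75 h. Cycle by cycle the lag was 10.3 h (first) and 3.65 h (second) in DD, and 7.51 h and 6.56 h in LD. In the first DD cycle the phase SEs were 2.05 h for the pump and 1.35 h for the hydrolases, so that a lag of 12 h, at which neither class leads, lay within error. The phase of the pump moved with the treatment of slides and trend: with slide as a fixed term in the cosine fit its circular mean was CT 20.3 in DD and CT 21.4 in LD, where the hydrolases lay at CT 17.9 and CT 14.4. Genes within a class share arrays, so these are descriptions with no test.

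**Figure D2:**
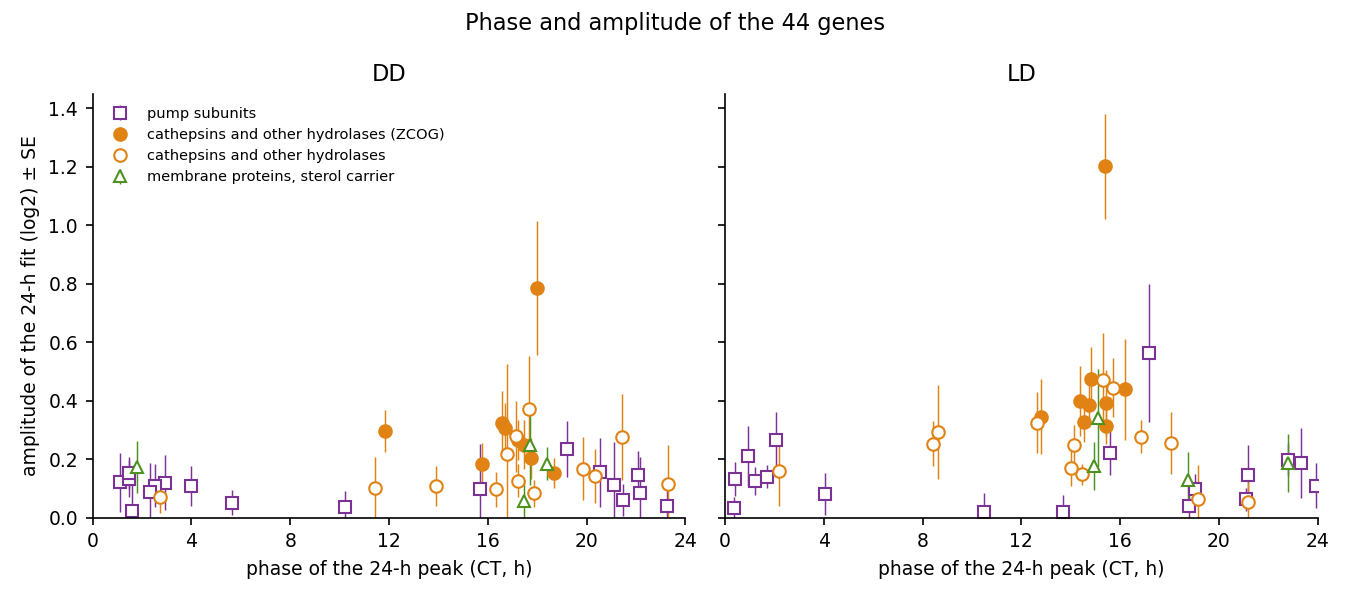
Phase of the 24-h peak (CT, hours) against amplitude (log2, with SE of the fit) for the 44 genes in DD and LD. Filled symbols are ZCOGs; 8 of the 9 lie between CT 15.8 and CT 18.7 in DD and between CT 14.4 and CT 16.2 in LD, while the pump genes lie low and mostly between CT 20 and CT 4.

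Among the cathepsins, ctss2.1, a cathepsin S gene whose mammalian counterpart acts in antigen-presenting cells, had the widest swing. Its signal ran between 5.57 (CT 0) and 8.19 (CT 44) in DD with a median of 6.67, and between 5.13 (CT 28) and 8.05 (CT 40) in LD with a median of 6.91. The fitted amplitude was 0.78 ± 0.23 in DD and 1.201 ± 0.18 in LD (SE, 12 arrays each), with phases of CT 17.98 and CT 15.4. The F test gave an adjusted p of 0.0682 in DD and 0.00104 in LD. Its neighbour ctss2.2 followed the same hours, with phases of CT 17.7 in DD and CT 15.3 in LD and amplitudes of 0.37 ± 0.18 and 0.47 ± 0.16, but was no ZCOG (g test p = 0.894 in DD and 0.247 in LD). The third cathepsin S gene, ctss1, was fitted at CT 19.9 in DD and CT 12.6 in LD and did not pass either. Near-identical copies could share signal on a probe, which these files do not resolve.

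Cathepsin D (ctsd), the main aspartic protease of the lysosome, and cathepsin B (ctsba), a cysteine protease, were more moderate. The ctsd signal lay between 14.32 and 15.30 in DD (median 14.74) and between 14.37 and 15.43 in LD (median 14.76), with amplitudes of 0.31 ± 0.09 and 0.39 ± 0.11. The ctsba signal lay between 15.51 and 16.21 in DD (median 15.83) and between 15.67 and 16.46 in LD (median 16.01), with amplitudes of 0.20 ± 0.07 and 0.31 ± 0.06. Both were lowest early in the first cycle and highest at CT 36 to CT 44. In LD the F test passed for both (adjusted p = 0.0324 for ctsd and 0.0154 for ctsba) and in DD for neither (0.213 and 0.266).

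The cathepsins did not all peak at night. The ZCOG ctsl.1, of the cathepsin L family, was fitted at CT 11.8 ± 0.92 h in DD and CT 12.8 ± 1.43 h in LD, hours before the others, with amplitudes of 0.30 and 0.35. Ctsla was fitted at CT 21.4 in DD and CT 18.1 in LD and passed no test by its brightest probe, and ctsll was fitted at CT 23.3 and CT 8.41. The other ctsla probe passed the F test in LD only with slide as a fixed term (adjusted p = 0.0480) or a random block (0.0375). Cathepsin H (ctsh), an aminopeptidase, was nearly flat, with amplitudes of 0.07 ± 0.06 in DD and 0.06 ± 0.07 in LD. Cathepsin F (ctsf) and cathepsin Z (ctsz, a carboxypeptidase) passed in LD only, ctsf not with slide in the fit, at CT 14.1 (adjusted p = 0.0449) and CT 16.8 (adjusted p = 0.00937), with adjusted p of 0.558 and 0.699 in DD. A pass in 1 condition does not show that the conditions differed.

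Among the other hydrolases, tripeptidyl peptidase 1 (tpp1), which trims tripeptides and is lost in a childhood neuronal storage disease, lay between 11.34 and 12.23 in DD (median 11.79) and between 11.29 and 12.62 in LD (median 11.96). Its amplitude was 0.25 ± 0.08 in DD and 0.48 ± 0.11 in LD, at CT 17.5 and CT 14.8, with an adjusted p of 0.344 and 0.00697. Neu1, the lysosomal sialidase, had amplitudes of 0.15 ± 0.05 in DD and 0.33 ± 0.07 in LD, at CT 18.7 ± 1.29 h and CT 14.5 ± 0.81 h. The beta subunit of hexosaminidase, hexb, passed the F test in LD (CT 15.7, adjusted p = 0.0272) and not in DD (CT 17.1, adjusted p = 0.361).

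The sulfatase genes gnsa and gnsb, duplicates that act on heparan sulfate, agreed in phase within their errors: CT 16.6 ± 1.24 h and CT 17.2 ± 0.99 h in DD, CT 14.4 ± 1.15 h and CT 16.2 ± 1.49 h in LD. Their probes did not agree in call, since the brightest probe of each was a ZCOG and the other 2 of gnsa and the other of gnsb were not. The neu3 sialidases, which in mammals sit at the plasma membrane, shared the CT 14 to CT 19 window of most hydrolases only in part. Neu3.1 and neu3.2 lay outside it in both conditions, while neu3.3 lay at its start in LD and just before it in DD. Neu3.1, neu3.2 and neu3.3 were fitted at CT 20.4, CT 11.4 and CT 13.9 in DD and at CT 19.2, CT 8.64 and CT 14.01 in LD, and none was a ZCOG. Of the membrane proteins, mcoln2, a cation channel, was fitted at CT 1.80 and CT 22.8 with amplitudes of 0.17 ± 0.09 and 0.19 ± 0.10, and lamp2 was fitted at CT 18.4 in DD and CT 14.96 in LD; 1 of its 3 probes was a ZCOG, but not the brightest. Lamp1a was fitted at CT 17.7 and CT 15.1 with amplitudes of 0.25 ± 0.14 and 0.34 ± 0.17, and the sterol carrier npc2.1 had amplitudes of 0.06 ± 0.07 and 0.13 ± 0.09.

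**Figure D3:**
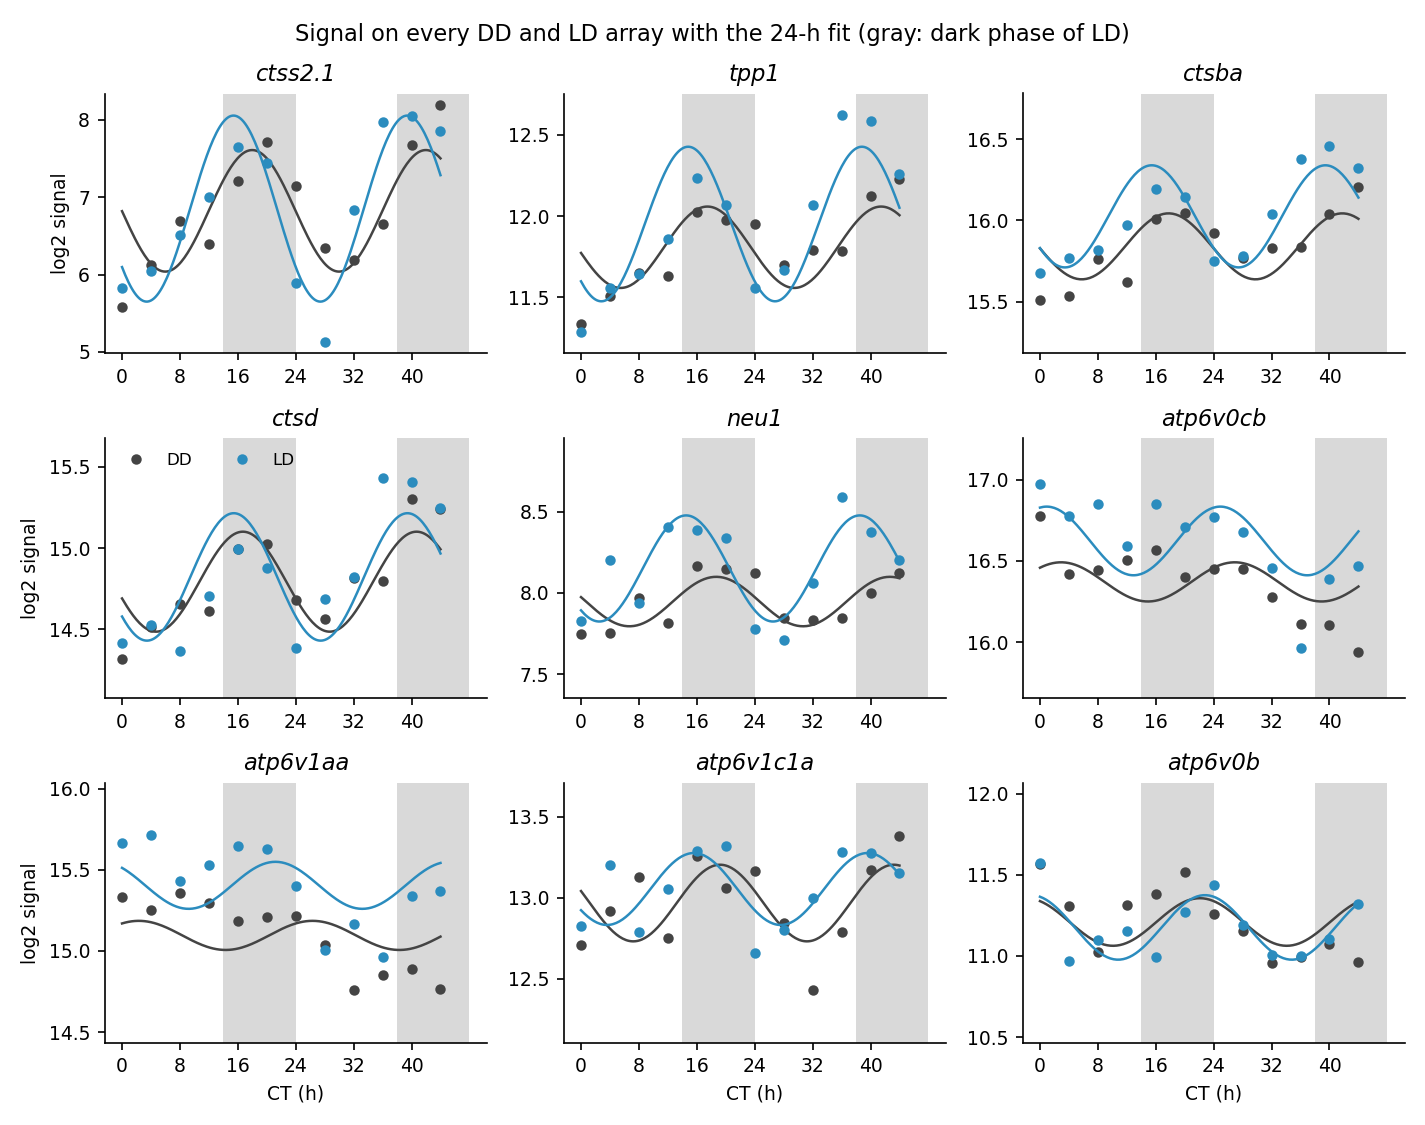
Log2 signal on every DD and LD array against CT (hours) for 5 hydrolase genes and 4 pump genes; points are single arrays and lines are the 24-h fits. The vertical span is at least 1.6 log2 units in each panel, and the hydrolases show a rise in each cycle while atp6v0cb and atp6v1aa are lower in the second.

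Most pump genes were lower on the second day than on the first. The dominant period was 48 h, the length of the record, in 13 of 18 pump genes in DD and 8 in LD, against 9 and 3 of 22 hydrolase genes and 48.9% and 45.3% of all NCBI genes. The pump share in LD was thus that of all genes. In the second cycle 16 of 18 pump genes were lower than in the first in DD and 16 of 18 in LD, by a median of -0.22 and -0.13, while 5 of 22 hydrolase genes in DD and 6 of 22 in LD were lower (medians of 0.13 and 0.20). The share over all NCBI genes was 50.9% in DD and 53.9% in LD. Age and slide change together along the record and cannot be told apart.

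Atp6v1aa, the A subunit that binds ATP, lay between 14.76 (CT 32) and 15.36 (CT 8) in DD with a median of 15.19, and between 14.96 (CT 36) and 15.71 (CT 4) in LD with a median of 15.41. Its second cycle was lower than its first by -0.35 in DD and -0.40 in LD. Atp6v0cb, a proteolipid of the rotating c ring, lay between 15.94 (CT 44) and 16.78 (CT 0) in DD and between 15.97 (CT 36) and 16.97 (CT 0) in LD, with second-cycle differences of -0.30 and -0.34. The other c-ring gene, atp6v0ca, gave -0.22 and -0.16. In the catalytic head, the B subunit atp6v1ba gave -0.23 and -0.31 and atp6v1b2 gave -0.38 and -0.15. The DD array at CT 32 was the lowest for 10 of the 18 pump genes, and without it and its partner at CT 8 the pump median in DD was -0.19, with 15 of 18 below 0.

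The nearest to a pump rhythm was atp6v1c1a, the C subunit that leaves the complex when the pump is taken apart. It was fitted at CT 19.2 ± 1.54 h in DD and CT 15.6 ± 1.297 h in LD with amplitudes of 0.24 ± 0.09 and 0.22 ± 0.08, and had a dominant 24-h period in both conditions, but its g test p was 0.605 in DD and 0.181 in LD. Its duplicate atp6v1c1b lay at CT 1.46 ± 1.33 h and CT 19.05 ± 1.98 h with amplitudes of 0.15 and 0.10. The duplicates of the a subunit, atp6v0a1a and atp6v0a1b, were at CT 21.5 and CT 20.5 in DD and at CT 1.23 and CT 23.3 in LD, with phase errors of 1.44 to 3.47 h. Atp6v0b passed the g test in LD (p = 0.131; CT 22.8, amplitude 0.20 ± 0.06) and was at CT 22.1 with 0.15 ± 0.08 in DD (p = 0.8287). Atp6v0a2b had the widest fitted swing of the pump in LD (0.56 ± 0.24, against 0.10 ± 0.15 in DD) on a dim probe. The accessory gene atp6ap1b was fitted at CT 1.12 with 0.12 ± 0.10 in DD and CT 2.08 with 0.27 ± 0.10 in LD.

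In DD the fitted hydrolase rhythms were later and smaller than in LD, but no gene passed the test of the difference. The median phase of the 22 hydrolase genes was 2.04 h later in DD than in LD, with 18 of 22 later, against 1.09 h and 65.1% over all NCBI genes and 1.25 h and 78.1% over all ZCOGs. The first cycle alone gave a median of -0.31 h and the second 3.87 h, so the delay rests on the second cycle. The amplitude in DD was below that in LD in 18 of 22 hydrolase genes (81.8%), with a median ratio of 0.64. Over all NCBI genes these were 68.3% and 0.80, and over all ZCOGs 80.1% and 0.81, so the hydrolase share was near that of the ZCOGs. The pump genes gave 11 of 18 and 0.80.

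The interaction of condition with the 24-h terms (limma F test, 5%) called 0 of the 44 genes and 0% of all genes. At an unadjusted p below 0.05 it gave 3 members (neu1, p = 0.0188; ctss2.1, p = 0.0376; ctss1, p = 0.0383) and 408 of 11164 genes, and with slide as a random block it called 0 members and 16 genes. For neu1 the fit was 4.16 ± 1.52 h later in DD with an amplitude ratio of 0.47. For ctss2.1 it was 2.58 ± 1.25 h later with a ratio of 0.65, and for tpp1 (p = 0.0788) it was 2.65 ± 1.54 h later with a ratio of 0.53. Ctsl.1 went the other way, 0.97 h earlier in DD (SE 1.70 h).

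The mean level over the 12 time points was compared between DD and LD by limma with the time point as a block. Slide was not in this fit, and DD and LD lay on separate slides, so each difference is also one between slides. In the rhythm fit with slide as a random block the correlation within a slide was 0.50. The p-values here treat the 12 time points as independent, so they are likely too small. Of the pump genes 4 of 18 were lower in DD and 0 higher, and of the hydrolase genes 1 of 22 was lower and 1 higher, where 8.63% of all genes were lower and 7.73% higher. The largest difference was in atp6v0a1a, which was lower on the DD arrays by 0.50 on the log2 scale (SE 0.05, adjusted p = 4.56e-05). Its DD arrays lay between 13.06 and 13.41 (median 13.15) and its LD arrays between 13.53 and 13.95 (median 13.67), without overlap. Atp6v1aa was lower by -0.31 ± 0.06 (adjusted p = 0.00331), atp6v1ba by -0.25 ± 0.05 (0.00208) and atp6v0cb by -0.25 ± 0.05 (0.00648), each with overlapping arrays. Without the first cycle 1 of these 4 passed, atp6v0a1a. Its duplicate atp6v0a1b gave -0.22 ± 0.07 (adjusted p = 0.0561). In the hydrolases ctsba was lower by -0.18 ± 0.06 (adjusted p = 0.0446) and neu3.3 higher by 0.22 ± 0.05 (adjusted p = 0.0114). These counts read the brightest probe of each gene, and other probes did not always match. The other probe of atp6v1aa gave -0.16 (adjusted p = 0.116). The other probes of atp6v0cb gave -0.11 (0.267) and -0.26 (0.0110). Dimmer probes did pass for atp6ap1b (-0.26, adjusted p = 0.0179), atp6v0ca (-0.19, 0.0108), atp6v0d1 (-0.15, 0.0134), ctss1 (-0.42, 0.00766) and ctsc (-0.35, 0.0345). The pump median was -0.10 and the hydrolase median -0.06, against -0.01 over all NCBI genes. Over all probes 42.7% of the 6107 calls were lower in DD, and 56.4% of 6243 with scaling to the 75th percentile.

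**Figure D4:**
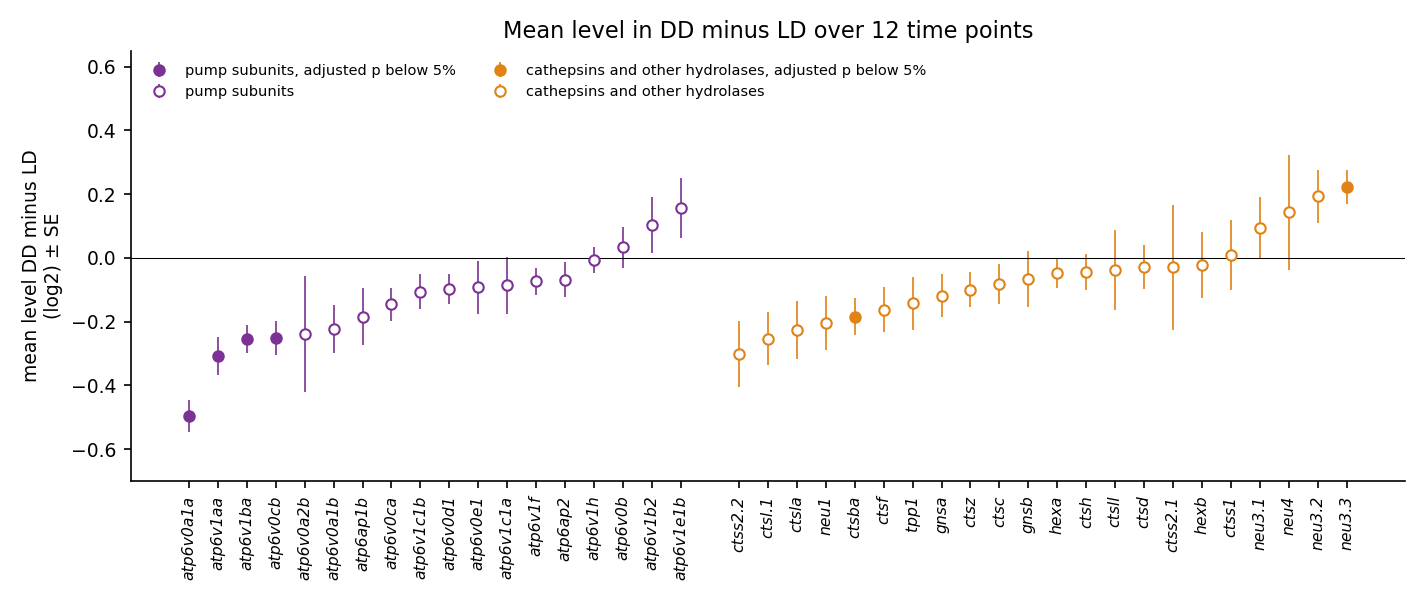
Mean level in DD minus LD (log2, with SE of the limma fit) over 12 time points for 18 pump genes and 22 hydrolase genes. Filled points passed 5% after adjustment; atp6v0a1a stands lowest at -0.50 and neu3.3 is the only gene called above 0.

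At 48 and 50 hpf the mean change in the mitfa morphants was below 0 in most pump genes and above 0 in most hydrolase genes, without a call at 5%. The test asked whether the transcripts differed between the 3 mitfa morphant pools and the 4 control morphant and WT pools. Limma called 0 of the 41 detected members, where 0.467% of all genes were lower and 1.12% higher. At an unadjusted p below 0.05, 8 of 18 pump genes were lower and 0 higher, and 2 of 20 hydrolase genes were lower and 1 higher, where 10.9% of all genes were lower and 14.5% higher. The change was below 0 in 16 of 18 pump genes, with a median of -0.28, and in 5 of 20 hydrolase genes, with a median of 0.17, against 45.0% and 0.04 over all NCBI genes. The hydrolase median was 0.05 without the first mitfa morphant pool at 50 hpf and 0.09 without the control morphant pool or the WT pool of that age. All 3 mitfa morphant pools lay below all 4 others for 7 of 18 pump genes and 3 of 20 hydrolase genes, against 11.9% of all genes, and above them for 0 pump genes and 3 hydrolase genes, against 15.9%.

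Atp6v0cb, of the c ring, had the smallest p. Its signal was 13.51 at 48 hpf and 13.27 and 13.41 at 50 hpf in the mitfa morphants, against 14.01 and 14.23 in the control morphants and 13.95 and 14.60 in WT at the same ages, a change of -0.80 ± 0.17 (limma, adjusted p = 0.0584). Atp6v1aa had 12.38, 12.01 and 12.23 in the mitfa morphants, against 12.83 and 13.07 in the control morphants and 12.61 and 13.06 in WT, a change of -0.68 ± 0.16 (adjusted p = 0.0650). For atp6v0a1b they were 6.54, 6.12 and 6.38, against 6.77 and 7.21 and 6.74 and 7.17, a change of -0.62 ± 0.17 (adjusted p = 0.0905). In each of these genes all mitfa morphant pools lay below all others and the gap was wider at 50 hpf: -0.47 and -1.07 for atp6v0cb, -0.34 and -0.94 for atp6v1aa and -0.21 and -0.94 for atp6v0a1b at 48 and 50 hpf.

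Smaller changes were measured for atp6v1h, the regulatory H subunit (-0.34 ± 0.11, adjusted p = 0.132), atp6v0ca (-0.31 ± 0.12), atp6v0d1 (-0.29 ± 0.11) and atp6ap2 (-0.26 ± 0.11). By their brightest probes the duplicates differed: atp6v0a1b had -0.62 and atp6v0a1a -0.18 ± 0.23, with overlapping pools, and that difference was not tested. The dimmer probe of atp6v0a1a gave 0.25 (adjusted p = 0.309), so the direction of that gene is not set. A further a subunit of the pump, tcirg1b (a3), whose symbol lies outside the rule, was higher, with a change of 1.447 in the mitfa morphants (adjusted p = 0.0532, below that of every pump member). Its level in DD was also above that in LD, by 0.25 (adjusted p = 0.0101). It was chosen after its values were seen. With normexp background correction in place of the scanner's own, 4 members passed 5%, all of the pump and all lower: atp6v0cb (adjusted p = 0.0296), atp6v1aa (0.0352), atp6v1h (0.0404) and atp6v0d1 (0.0469). Over all probes that correction gave 1735 calls, 45.6% of them lower, against 366 with 36.9% lower in the fit of the scanner-corrected values, and scaling to the 75th percentile gave 98 with 24.5% lower.

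Markers of other cell types were read on the same arrays. Of the 6 detected neuronal markers (elavl3, elavl4, snap25a, snap25b, stmn1b and stxbp1a) all 6 had a change below 0, by a median of -0.75, with 0 past 5%. Their summed level was 14.02 to 14.59 in the mitfa morphants, against 14.96 to 15.28 in the others. Of the pigment cell markers 7 of 7 were below 0 by a median of -0.75, and 2 (tyrp1b and pmela) were past 5%. The summed level of the pigment list was 13.83 to 13.90 in the mitfa morphants, against 14.57 to 14.95 in the others. The ionocyte markers, of cells rich in the pump, had a summed level of 13.29 to 13.65 against 13.12 to 13.47, with 3 of 4 below 0 and a median of -0.07. Hatching gland and enterocyte lists had medians of 0.04 and 0.01, and the macrophage and neutrophil list -0.03, with 0 genes past 5%. The enterocyte median rests on only 2 detected genes of opposite sign, slc20a1a (0.11) and dab2 (-0.09). The part of these cell types in the pump values was not tested.

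Of the hydrolases, cathepsin H stood highest among those with a small p. The ctsh signal was 10.12 at 48 hpf and 11.13 and 10.09 at 50 hpf in the mitfa morphants, against 9.52 and 9.73 in the control morphants and 9.83 and 9.74 in WT, a change of 0.74 ± 0.25 (adjusted p = 0.136). The pool at 11.13 carried much of this, and without it the change was 0.41. Ctss2.1 had the widest range, with 5.93, 7.69 and 6.34 in the mitfa morphants, against 6.31 and 5.97 in the control morphants and 4.29 and 3.599 in WT. All 5 injected pools lay above both WT pools, and the change was 2.71 against WT alone and 0.51 against the control morphants alone (adjusted p = 0.0817 and 0.630). Neu3.1 (-0.34 ± 0.12, adjusted p = 0.145), ctsf (-0.33 ± 0.14) and gnsa (-0.25 ± 0.12) were below the others in all mitfa morphant pools. Neu1 (0.28 ± 0.14) and tpp1 (0.32 ± 0.14) were above them, and none was past 5%. A dimmer probe of gnsa gave -0.39 (adjusted p = 0.0901) with the same order of pools, and another gave -0.15 (0.718) with overlapping pools.

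**Figure D5:**
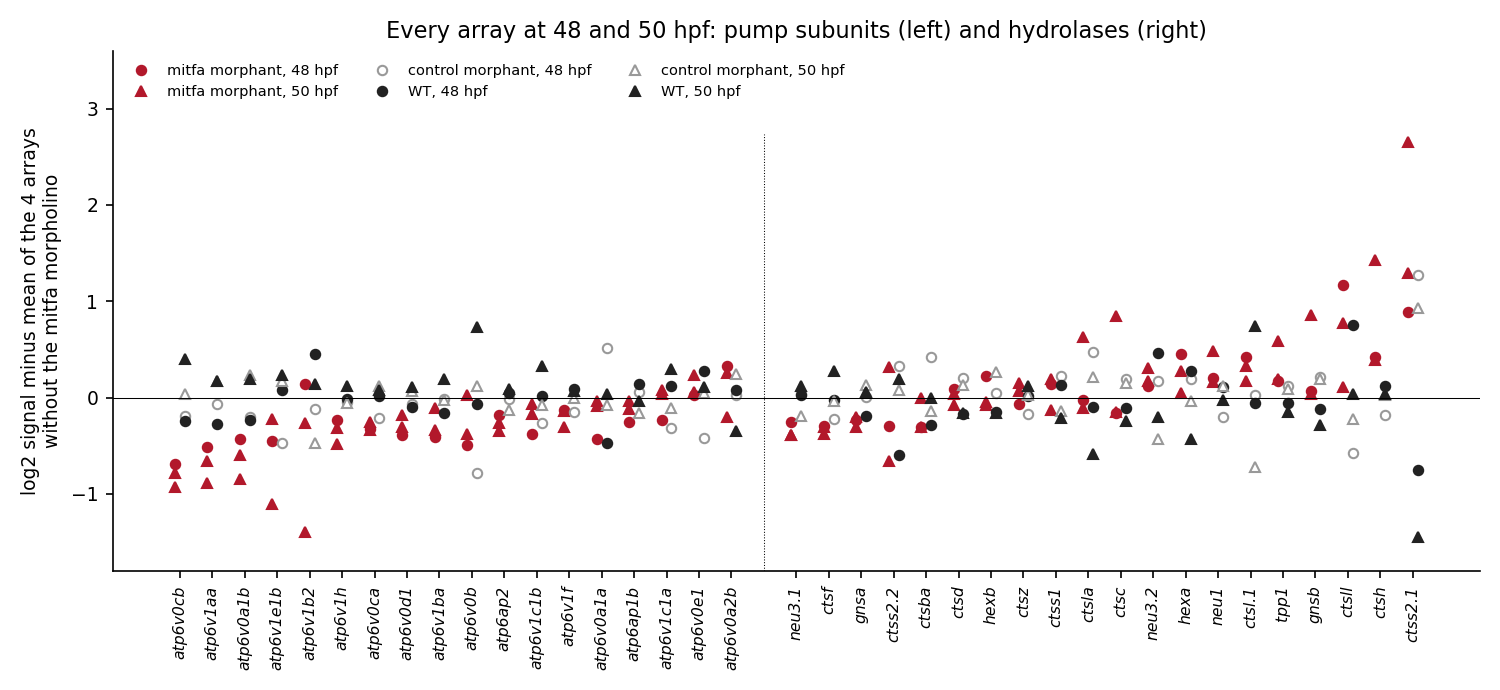
Log2 signal of every array at 48 and 50 hpf minus the mean of the 4 arrays without the mitfa morpholino, for 18 pump genes (left) and 20 hydrolase genes (right), each ordered by its change. The mitfa morphant pools lie below all other pools for 7 pump genes, and ctss2.1 separates the WT pools from all injected pools.

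Further lysosomal and autophagy genes were counted in the same way. Of 25 further lysosomal hydrolases detected on the DD and LD arrays, 7 were ZCOGs (among them glb1, manba, sgsh and lgmn), against 17.6% of all NCBI genes. In LD 12 oscillated, against 21.6% of all genes, and in DD 3, against 13%, so the DD count is near the share of all genes. The circular mean phase of the 25 genes was CT 17.3 in DD (vector length 0.78) and CT 14.8 in LD (0.87). Of 21 further membrane proteins, activators and sorting receptors, 7 were ZCOGs (cd63, ctns, psap, grna, sort1a, gnptab and clcn7), against the same 17.6%. The circular means of the 21 genes were CT 17.3 in DD (0.54) and CT 13.9 in LD (0.51). Of 12 autophagy genes 6 were ZCOGs, against 17.6%, and the 12 had circular means of CT 16.3 in DD (0.58) and CT 13.5 in LD (0.46). At 48 and 50 hpf limma called 0 of these in either direction. In the mitfa morphants 6 of 24 hydrolases were below 0 (median 0.07), 10 of 21 membrane and sorting genes (median 0.00) and 9 of 12 autophagy genes (median -0.20). Over all NCBI genes 45.0% were below 0 (median 0.04).

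The MiT/TFE transcription factors and cell type markers gave these values over the same arrays. Of 5 MiT/TFE genes detected in the time course 1 was a ZCOG, mitfa, at CT 23.4 in DD and CT 20.2 in LD with amplitudes of 0.27 and 0.75. Of the 6 macrophage and neutrophil markers 3 were ZCOGs (mpeg1.1, lcp1 and coro1a), against 17.6% of all NCBI genes. None of these 3 passed the F test in DD or LD, where the smallest adjusted p was 0.225 (coro1a in LD). Another marker of the list, csf1ra, was no ZCOG but passed the F test in LD (adjusted p = 0.0347) and not in DD (0.639). Its LD fit was at CT 10.2 with an amplitude of 0.28. That was 1 of the 6 markers in LD, against 15.3% of all genes. The list had a circular mean of CT 14.8 in DD and CT 12.1 in LD and median amplitudes of 0.13 and 0.14. The summed level of the 6 markers ranged from 14.97 to 15.43 in DD and from 14.96 to 15.44 in LD. Their part in the cathepsin rhythms was not tested. Of the 4 enterocyte and kidney tubule markers 2 were ZCOGs (slc20a1a and slc10a2), against 17.6% of all NCBI genes. That list had circular means of CT 23.9 in DD and CT 21.8 in LD. Of the 4 ionocyte markers 1 was a ZCOG (ca2), and the list lay at CT 19.8 and CT 0.39. The neuronal list had 1 ZCOG of 6, the pigment cell list 2 of 7 and the hatching gland list 1 of 2. The part of these cell types in the pump courses was not tested.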

How the data were processed

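Per the labels, total RNA of whole larvae was labelled with Cy3 and hybridized to 31 arrays, 24 of DD and LD and 7 of 48 and 50 hpf. The authors extracted the spots with Agilent Feature Extraction (10.5.1 in the submitters' notes, 10.7.3.1 in the file headers). The deposited scanner files hold background-corrected spot intensity and flags for spots well above background, saturated or outlying, and the deposited value table holds log2 values, which matched the quantile-normalized values used here (r of at least 0.9999 on every array). From the scanner files, log2 intensity was quantile normalized within each set with limma 3.58.1 in R 4.3.3, leaving out outlier spots, and probes well above background on at least 75% of a set's arrays were kept (35412 and 30508 probes).

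Accessions in the files were matched to current NCBI symbols of RefSeq (16797 of 43603 probes, 11613 genes). Coordinates are not given, since the genome build of the reference table differs from that in the file headers. Sequences are not given, since none came with the array data or the reference table. The g test used Fourier periods of 48, 24, 16, 12 and 9.6 h, as in the study's methods, and phases and amplitudes came from a 24-h least-squares cosine (Python 3.11.15, numpy 2.4.6 and scipy 1.17.1). Limma fits ran over all detected probes with Benjamini-Hochberg adjustment. The fits were tested on simulated data. The number of arrays limits the precision, and the p-values of the 48 and 50 hpf arrays measure only the spread between these pools.

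Genes were named by a rule: in each role the 4 with the largest mean amplitude and up to 2 bright genes that were not ZCOGs, the 5 smallest p at 48 and 50 hpf and in the interaction, duplicate pairs, and genes whose probes disagreed. Other genes named were chosen after their values were seen. The members and lists were chosen with earlier results of these data known.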

Additional observations from a re-analysis of the deposited data

Results flagged for a closer look

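For neu3.2, a sialidase gene, the mitfa morphant pools lay on opposite sides of the others at the 2 ages. At 48 hpf the mitfa morphant pool lay below both other pools (-0.20 on the log2 scale), and at 50 hpf both mitfa morphant pools lay above both others (0.55). The difference was not tested. With so few pools such an order can arise by chance, and its share over all genes was not counted. Over the 41 members detected at 48 and 50 hpf, 0 had a pool among the 4 without the mitfa morpholino that stood apart by Dixon's criterion, which chance meets in about 1 of 20 groups.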

How the results depend on the processing

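Scaling to the 75th percentile gave 1 pump gene oscillating in DD, 1 in LD and a pump phase of CT 0.52 in LD. Normexp gave 1 pump ZCOG, 0 pump genes oscillating in LD, a pump phase of CT 23.4 in LD, and 4 members past 5% at 48 and 50 hpf. With a straight line removed there were 3 pump ZCOGs, 1 pump gene oscillating in DD, and pump phases of CT 20.4 in DD and CT 20.9 in LD. The shares of all genes called rhythmic under these settings were not counted. Counting all probes put the pump at CT 23.4 in LD.

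Without the first cycle there were 3 ZCOGs and 1 DD oscillating gene in the pump, 15 and 7 in the hydrolases, a hydrolase phase of CT 14.2 in LD, and 1 pump gene lower in DD in level. Without the second cycle the pump had 2 ZCOGs, 1 oscillating gene in DD, 4 in LD and a phase of CT 23.4 in LD. The hydrolases then had 2 ZCOGs, 1 oscillating gene in DD and 3 in LD, a phase of CT 16.2 in DD, an amplitude ratio of 0.77, and a median phase difference of -0.31 h, reversed in sign. The cause was not tested, but each cycle alone has 6 time points per condition. Of all genes 24.2% were ZCOGs in the first cycle alone and 33.8% in the second alone. The shares of all genes oscillating, or lower in DD in level, in a single cycle were not counted. Those counts of members cannot be read as many or few.

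The limma F test in place of the g test gave 0 pump genes in LD, and 0 hydrolase genes in DD or in both conditions. With slide as a fixed term it gave 2 pump genes in LD, and again 0 hydrolase genes in DD or in both conditions. Slide as a fixed term in the cosine fit put the pump at CT 20.3 in DD and CT 21.4 in LD. Both slide fits, and the fit without CT 32, were chosen after seeing the data. Hydrolase genes lower in DD in level numbered 2 in the deposited table, 0 without the detection filter and 2 with detection on all 24 arrays. The shares of all genes lower in level under these settings were not counted, so these counts cannot be read as many or few.

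Leaving out 1 pool at a time at 48 and 50 hpf gave medians of -0.32 to -0.23 for the pump and 0.05 to 0.25 for the hydrolases, with 0 members past 5% each time. With age as a block, which is also the slide, 0 members passed and 19 probes did in all. The methods' t-test called 0 members in p and fold together, 7 in p alone and 0 after adjustment. The share of all genes past that p alone was not counted, so the 7 cannot be read as many or few. Of the other values for classes 162 stayed within a loose limit. For counts it was a set factor of the main count, and for other values the SD of the 2 cycles or the 2 ages. That SD can be hours: the pump genes in DD had circular means of CT 2.48 and CT 22.4 in the 2 cycles. Of the values for single genes 308 kept their side of the threshold, 13 gained a call and 21 lost one. No promoter motif search was run. Dim probes at 48 and 50 hpf limit what the arrays can show there.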
